A study of Homo sapiens with 120 samples.

Results

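The genes described here copy DNA and divide cells: 42 protein-coding genes chosen by symbol out of the 62703 genes of the deposited table, on 18 chromosomes. They fall into 4 groups by role. The 16 replication genes encode the helicase that unwinds DNA (MCM2 to MCM7), the factors that load and activate it (CDC6, CDT1, ORC1, MCM10, GINS1, GINS2), the sliding clamp PCNA, and enzymes that make DNA building blocks (RRM1, RRM2, TYMS). The 5 genes of the E2F and cyclin E group (E2F1, E2F2, E2F8, CCNE1, CCNE2) encode transcription factors and cyclins of the entry into S phase, the phase in which DNA is copied. The 17 mitotic genes encode the cyclin-dependent kinase CDK1 and its cyclins (CCNA2, CCNB1, CCNB2), mitotic kinases and checkpoint proteins (AURKA, AURKB, PLK1, BUB1, BUB1B), regulators of protein destruction at the end of mitosis (CDC20, UBE2C), and proteins of chromosomes, kinetochores and the spindle (TOP2A, MKI67, CENPE, CENPF, BIRC5, TPX2). The last group holds the 3 D cyclins (CCND1, CCND2, CCND3), which link outside signals to the cell cycle, and CDKN1B, an inhibitor of cyclin-dependent kinases. All 42 genes passed the filter on low counts and were tested in both arms of the study.

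As background, E2F factors switch on genes of DNA replication before and during S phase, and the retinoblastoma protein holds these factors in check until D cyclins with their kinases, and then cyclin E, inactivate it. Mitotic genes are switched on later, through a promoter element called the cell cycle genes homology region (CHR) and the CCAAT boxes near it. Human embryonic stem cells are known for fast division with short gap phases, and their cell cycle lengthens when they differentiate. In bulk RNA, fewer dividing cells and less RNA per dividing cell cannot be told apart.

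All libraries are from H1 cells, a long-established line of human embryonic stem cells. The study edited or expressed LNCPRESS1 (lncPRESS1), whose long non-coding RNA is known from pluripotent cells. The differentiation arm compared knockout (KO), ΔATG and unedited (WT) cells at day 0 and on days 1 to 5 of 3 protocols: BMP4 treatment towards mesoderm, SMAD inhibition towards neuroectoderm (SMADi), and induction of definitive endoderm with a commercial kit (Endo). The labels do not spell out what ΔATG stands for. The overexpression arm compared H1 cells labelled as carrying lncPRESS1, its ΔATG form or lncSIRP with a vector control at 3 stages called early, middle and late. The sources used here give neither the nature of lncSIRP, nor the days of the stages, nor the number of clones behind a line, so a line and its clone cannot be told apart. The 60 groups hold 2 libraries apiece, lettered a and b. No label says that these are separate cultures, so p-values measure the spread between these libraries, which may be technical.

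Estimated counts per library summed to 38298440 to 71220396 in the differentiation arm and to 40113672 to 65466258 in the overexpression arm. LNCPRESS1 (ENSG00000232301), which checks the edit, was at 13.2 and 5.60 CPM (counts scaled to library size) in KO cells, 53.1 and 35.2 CPM in ΔATG cells, and 21.4 and 40.6 CPM in WT cells at day 0. The RNA was lower in KO than in WT cells at day 0 (log2 fold change -1.70 ± 0.22, adjusted p = 2.22e-07), in BMP4 and in SMADi. It was not lost at day 0 or in BMP4. In SMADi it fell in KO cells to 0.0375 and 0.124 CPM on day 4 and to 0.0523 and 0 CPM on day 5. WT cells of SMADi had 5.95 and 6.20 CPM on day 4 and 1.61 and 1.70 CPM on day 5. In ΔATG cells the RNA was lower than in WT cells in SMADi only. In Endo the RNA was low in WT cells too, at 1.65 and 1.05 CPM on day 1 and at 0 and 0.038 CPM on day 5. There the edgeR test of KO against WT cells over days 1 to 5 gave no difference (-0.45 ± 0.91, adjusted p = 0.891). In WT cells markers of the named fates rose by day 5. All 8 streak and mesoderm markers rose in BMP4, all 8 neuroectoderm markers in SMADi and all 8 definitive endoderm markers in Endo. In BMP4, 7 of 8 amnion and trophoblast markers and 7 of 8 definitive endoderm markers rose as well. The 8 pluripotent cell markers summed to 3305 to 3623 CPM in BMP4, 4567 to 4585 CPM in SMADi and 2307 to 2350 CPM in Endo. At day 0 they summed to 5542 to 6018 CPM. How far each culture had reached its fate was not tested. At day 0 and in BMP4, libraries that share a letter shared deviations from their group means. In these 18 groups GINS1, CCNA2, CDK1, BUB1, PLK1, CCND1 and CDKN1B were higher in library a every time, and CENPF and UBE2C in library b every time.

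Promoters of the replication and the mitotic genes differ in their short motifs, which is why a few are shown. RefSeq (GRCh38.p14) held a window of 250 bases before to 50 after the start for 32 of the 42 genes. The letters searched on both strands were TTTNNCGC for E2F, TTTGAA or TTCGAA for the CHR, and CCAAT. Stretches before the RefSeq start of 6 genes follow, with all matches on either strand in capitals; matches can overlap, as they do once in E2F1. GENCODE 29, the source of gene positions here, starts some genes further upstream: the MCM7 stretch lies within its gene, those of MCM3, E2F1, CCNB2 and TOP2A run into theirs, and that of CDC20 lies outside.
MCM3 (chr6:52284812-52284992, minus strand): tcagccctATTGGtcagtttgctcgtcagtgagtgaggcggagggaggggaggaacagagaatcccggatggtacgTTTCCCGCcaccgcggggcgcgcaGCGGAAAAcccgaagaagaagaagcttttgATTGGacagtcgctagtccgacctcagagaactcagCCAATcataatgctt
MCM7 (chr7:100101398-100101594, minus strand): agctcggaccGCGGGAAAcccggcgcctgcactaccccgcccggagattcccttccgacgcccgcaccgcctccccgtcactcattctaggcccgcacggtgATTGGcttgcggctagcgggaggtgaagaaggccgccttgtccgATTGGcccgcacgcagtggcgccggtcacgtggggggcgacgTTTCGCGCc
E2F1 (chr20:33686386-33686574, minus strand): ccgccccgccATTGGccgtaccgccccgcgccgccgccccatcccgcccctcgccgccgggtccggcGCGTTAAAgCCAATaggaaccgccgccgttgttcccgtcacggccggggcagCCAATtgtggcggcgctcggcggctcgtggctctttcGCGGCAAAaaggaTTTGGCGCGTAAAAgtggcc
CCNB2 (chr15:59104896-59105132, plus strand): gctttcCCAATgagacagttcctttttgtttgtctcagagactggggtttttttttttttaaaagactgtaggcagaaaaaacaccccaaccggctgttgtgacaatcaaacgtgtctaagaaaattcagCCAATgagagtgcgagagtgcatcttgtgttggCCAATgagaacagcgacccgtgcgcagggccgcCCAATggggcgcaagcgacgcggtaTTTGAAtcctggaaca
CDC20 (chr1:43358793-43358940, plus strand): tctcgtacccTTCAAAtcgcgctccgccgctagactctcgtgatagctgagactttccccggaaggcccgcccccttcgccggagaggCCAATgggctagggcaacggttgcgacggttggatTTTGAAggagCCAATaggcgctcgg
TOP2A (chr17:40417935-40418146, minus strand): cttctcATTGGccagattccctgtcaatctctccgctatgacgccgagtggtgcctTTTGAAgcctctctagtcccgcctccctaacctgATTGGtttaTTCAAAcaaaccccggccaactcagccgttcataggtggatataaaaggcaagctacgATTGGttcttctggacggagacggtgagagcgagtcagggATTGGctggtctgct

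The E2F letters stood in 10 of 14 replication genes with a window (71.4%), in 2 of 3 genes of the E2F and cyclin E group (66.7%) and in 1 of 13 mitotic genes (7.69%), against 8.23% of all 27305 genes with a window. The CHR letters stood in 2 of 14 replication genes (14.3%) and 9 of 13 mitotic genes (69.2%), against 19.5% of all genes. CCAAT was found in 11 of 14 replication genes (78.6%) and 11 of 13 mitotic genes (84.6%), against 39.7% of all genes. A match describes the letters of the window and is not a measured binding site. Among other genes of the same processes, 16 of 35 replication genes (45.7%) held the E2F letters and 28 of 38 mitotic genes (73.7%) the CHR letters.

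In unedited cells the replication genes rose on the first day of each protocol. A gene is called where the edgeR quasi-likelihood test gave a Benjamini-Hochberg adjusted p under 0.05 over all tested genes. On day 1 against day 0, 14 of 16 replication genes rose in BMP4, 15 of 16 in SMADi and 15 of 16 in Endo, and none fell. Their median log2 fold changes were 0.31, 0.81 and 0.63, with the median of all genes near 0. The mitotic genes moved less, with medians of 0.07 in BMP4, 0.15 in SMADi and 0.25 in Endo. Over all 42 genes the counts of higher and lower were 21 and 3 in BMP4 (29.6% of all tested genes called), 28 and 2 in SMADi (44.9% called), and 30 and 3 in Endo (48.4% called). All comparisons with day 0 share the same 2 WT libraries of day 0, so the 3 protocols are not independent observations. In these 2 libraries the mean log2 CPM of the replication genes was 7.046 and 6.799.

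RRM2, the small subunit of the enzyme that makes deoxyribonucleotides, and MCM10, which activates the helicase, moved most among the replication genes on day 1 in all 3 protocols. RRM2 had 199 and 202 CPM in BMP4, 321 and 332 CPM in SMADi and 425 and 382 CPM in Endo on day 1, against 145 and 94.7 CPM at day 0. All 6 day 1 libraries lay above both day 0 libraries, and those of Endo were highest. The log2 fold changes of RRM2 were 0.74 ± 0.16 in BMP4, 1.45 ± 0.16 in SMADi and 1.75 ± 0.16 in Endo (adjusted p = 0.000167, 5.01e-11 and 6.63e-14). MCM10 rose by 0.64 ± 0.13, 1.28 ± 0.13 and 0.94 ± 0.13. Of the S-phase regulators, E2F2 rose most in BMP4 (0.80 ± 0.17, adjusted p = 0.000186), CCNE2 in SMADi (1.56 ± 0.31, adjusted p = 2.93e-05) and E2F8, a repressor among the E2F factors, in Endo (1.29 ± 0.16, adjusted p = 8.25e-10).

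**Figure D1:**
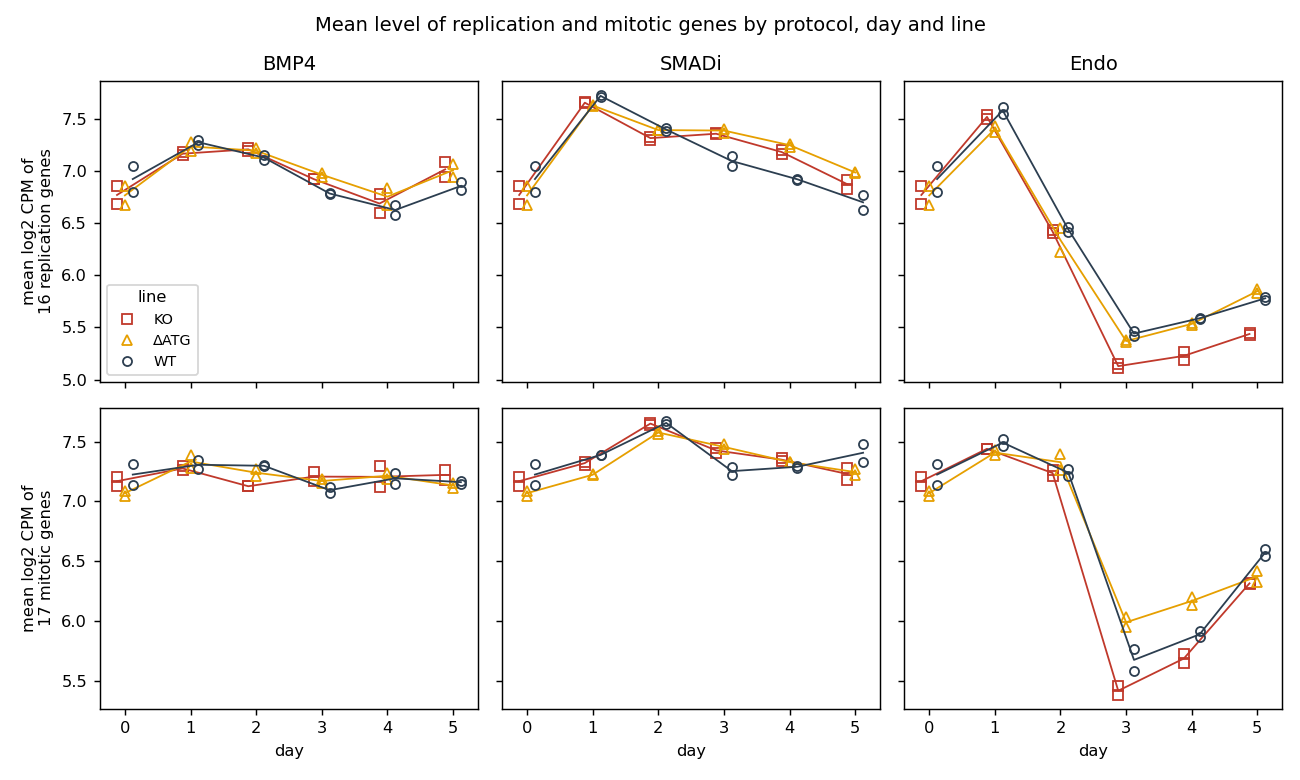
Mean log2 CPM of the 16 replication genes (upper row) and of the 17 mitotic genes (lower row) by day in each protocol. Points are the single libraries of KO, ΔATG and WT cells. At day 0 the WT replication genes lie at 7.046 and 6.799, and the mitotic genes at 7.315 and 7.135. In SMADi the replication genes of WT cells lie at 7.731 and 7.709 on day 1 and at 6.625 and 6.774 on day 5. On day 2 of Endo the replication genes of WT cells lie at 6.462 and 6.416, and the mitotic genes at 7.209 and 7.272.

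After day 1 the courses parted. In SMADi, 15 replication genes were still above day 0 on day 2, when 12 of 17 mitotic genes were above it too (median 0.43 in both groups). On that day 30 of the 42 genes were higher and 1 lower (37.2% of all genes called). BUB1, a spindle checkpoint kinase, was higher by 0.96 ± 0.12 (adjusted p = 2.55e-09) and CCNA2, the cyclin of S phase and early mitosis, by 1.09 ± 0.19 (adjusted p = 5.03e-06). By day 5, 0 replication genes were higher and 6 were lower, while 7 mitotic genes were higher and 1 was lower (9 and 11 of all 42 genes; 53.5% of all genes called).

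At day 5 of SMADi the replication genes of WT cells had a median of -0.11, and 10 of 16 were not called. MCM5, a helicase subunit, fell further than that median. In WT cells MCM5 had 258 and 260 CPM at day 0, 523 and 502 CPM on day 1, 272 and 281 CPM on day 2, 212 and 231 CPM on day 3, 164 and 173 CPM on day 4 and 122 and 144 CPM on day 5. The day 1 libraries were highest and the day 5 libraries lowest, with no overlap with day 0 (day 5 against day 0: -0.97 ± 0.08, adjusted p = 1.57e-15). RRM2 fell by 1.08 at day 5 on the log2 scale (SE 0.16). CCNE1 and E2F8 were the lowest of their group at day 5 (-1.09 ± 0.09 and -0.94 ± 0.18). CDK1, by contrast, had 179 and 157 CPM on day 5, against 104 and 66.0 CPM at day 0 (0.98 ± 0.18, adjusted p = 7.11e-06). CCNB2, a cyclin of mitosis, rose by 0.65 ± 0.07, and BUB1B, which holds mitosis until chromosomes are attached, was the 1 mitotic gene that fell (-0.26 ± 0.08, adjusted p = 0.00362).

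Of other genes of these processes, 25 of 43 mitotic genes rose and 4 fell at day 5 of SMADi (median 0.33), while 13 of 41 replication genes rose and 9 fell (median -0.04). CKAP2, a spindle protein, rose by 1.08 ± 0.17 and MYBL2, a transcription factor of the G2 and mitotic programme, fell by 1.03 (SE 0.09). Among 30 regulators of the cycle, 12 rose and 7 fell. CDKN1C, an inhibitor of cyclin-dependent kinases, rose by 2.45 ± 0.13, and MYC, which drives growth and division, fell by 1.95 (SE 0.15).

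In Endo the replication genes fell first and the mitotic genes a day later. On day 2, 0 replication genes were higher and 9 were lower (median -0.53), against 3 higher and 4 lower mitotic genes (median -0.00). Over all 42 genes 4 were higher and 18 lower (56.7% of all genes called). On day 3 all 16 replication genes (median -1.60) and all 17 mitotic genes (median -1.61) were below day 0, and 39 of the 42 genes were lower with 1 higher (61% of all genes called). At day 5, 34 genes were lower and 2 higher (63.4% of all genes called), and the replication genes (16 of 16 lower, median -1.29) lay further below day 0 than the mitotic genes (14 of 17 lower, median -0.56).

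MCM5 and CCNB1 show this order. MCM5 in WT Endo cells had 258 and 260 CPM at day 0, 371 and 347 CPM on day 1, 131 and 134 CPM on day 2, 85.9 and 79.3 CPM on day 3, 97.1 and 95.4 CPM on day 4 and 93.2 and 91.5 CPM on day 5. CCNB1, the cyclin that starts mitosis with CDK1, had 221 and 185 CPM at day 0, 325 and 307 CPM on day 1, 203 and 203 CPM on day 2, 86.4 and 95.5 CPM on day 3, 103 and 114 CPM on day 4 and 157 and 145 CPM on day 5. On day 2 both MCM5 libraries were below both day 0 libraries, whereas the CCNB1 libraries lay between those of day 0. The log2 fold changes on day 2 were -0.97 ± 0.08 for MCM5 and -0.00 ± 0.08 for CCNB1 (adjusted p = 0.992), and on day 3 they were -1.65 ± 0.08 and -1.16 ± 0.08.

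Among the replication genes MCM3 and PCNA led the fall on day 2 (-1.25 ± 0.05 and -1.19 ± 0.09) and CDT1 and ORC1, which load the helicase, on day 3 (-2.32 ± 0.11 and -2.04 ± 0.10). MCM3 had 104 and 105 CPM on day 5, against 425 and 390 CPM at day 0 (-1.96 ± 0.06, adjusted p = 4.80e-36), and MCM4 fell by 1.79 (SE 0.10). BUB1B and CENPF, a kinetochore protein, were the lowest mitotic genes on day 3 (-2.39 ± 0.08 and -2.15 ± 0.17) and again on day 5 (-1.55 ± 0.08 and -2.10 ± 0.17). MKI67, the common marker of cycling cells, and CCNA2 were the highest mitotic genes on day 2 (0.69 ± 0.16 and 0.45 ± 0.19). E2F8 and E2F1 were below day 0 on day 5 (-1.59 ± 0.19 and -1.21 ± 0.11), while CCNE2, at 4.15 and 4.88 CPM against 2.95 and 1.77 CPM at day 0, was above it (0.93 ± 0.32, adjusted p = 0.0106).

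At day 5 of Endo, 33 of 41 other replication genes and 29 of 43 other mitotic genes were lower, with 3 and 7 higher (medians -0.64 and -0.50). CHAF1A, which places histones on new DNA, fell by 1.95 (SE 0.09) and ESPL1, which cuts the link between sister chromatids, by 1.45 (SE 0.14). The highest of the other replication genes was SLBP, which binds histone messages (0.52 ± 0.09), and of the other mitotic genes KNL1, a kinetochore scaffold (0.85 ± 0.28). Of the 30 regulators 16 rose and 10 fell. CDKN2B, an inhibitor of the kinases of D cyclins, had 22.0 and 21.1 CPM on day 5, against 0.102 and 0.123 CPM at day 0 (log2 fold change 7.56 ± 0.29). MYC had 4.11 and 4.88 CPM, against 57.8 and 65.2 CPM at day 0 (-3.77 ± 0.17). The 8 definitive endoderm markers summed to 14315 to 14754 CPM on day 5, against 6.09 to 9.24 CPM at day 0; the part of this change of cell type in the fall was not tested.

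**Figure D2:**
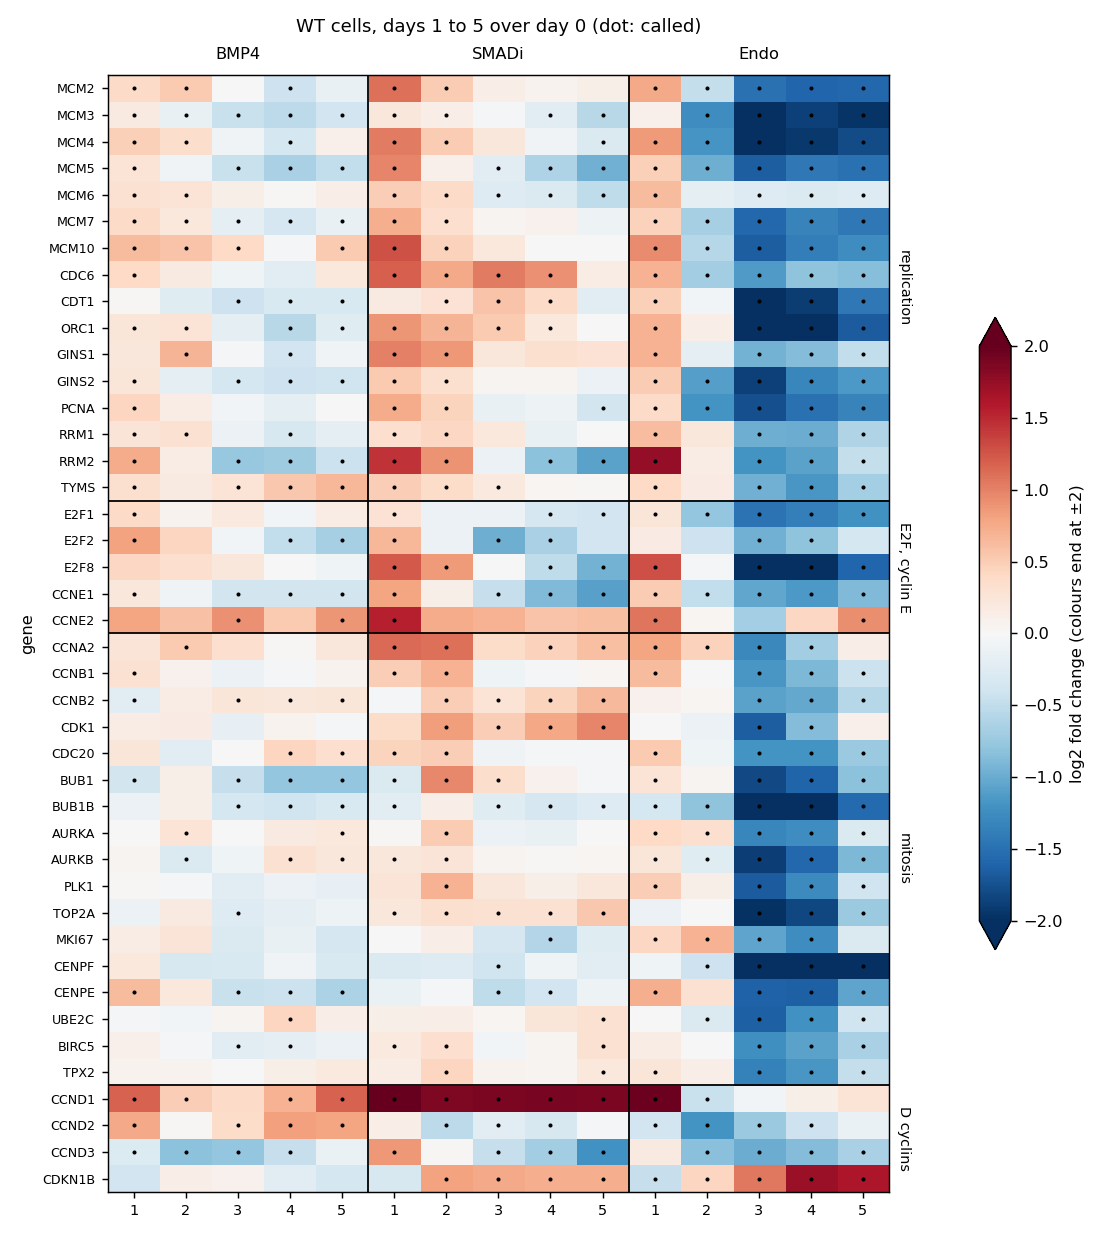
Log2 fold change against day 0 in unedited cells, with 1 row for each of the 42 genes and 1 column for each day of each protocol; colours end at -2 and 2 and dots mark called differences. The replication rows are above day 0 on day 1 in all 3 protocols, and from day 3 nearly all rows of Endo are below it.

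In BMP4 the replication genes rose on day 1 and were mostly below day 0 on day 4. The 14 higher replication genes of day 1 were followed by 1 higher and 11 lower on day 4 (median -0.34), when 7 of the 42 genes were higher and 18 lower (44.5% of all genes called). On day 5 the counts were 9 higher and 12 lower (45% of all genes called), with 2 higher and 7 lower replication genes and 4 higher and 3 lower mitotic genes. MCM5 had 195 and 175 CPM on day 5, against 258 and 260 CPM at day 0 (-0.49 ± 0.08, adjusted p = 7.63e-07). TYMS, which makes thymidylate, moved the other way, with 113 and 111 CPM on day 5 against 76.9 and 63.3 CPM at day 0 (0.67 ± 0.08, adjusted p = 8.12e-11). Neither gene's libraries overlapped between the days.

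MCM10 rose (0.52 ± 0.13) and RRM2 fell (-0.43 ± 0.16, adjusted p = 0.0216) at day 5 of BMP4. CCNE2 was higher (0.88 ± 0.32, adjusted p = 0.0197) and E2F2 and CCNE1 lower (-0.67 ± 0.19 and -0.37 ± 0.09). Of the mitotic genes CDC20 and CCNB2 rose (0.34 ± 0.10 and 0.25 ± 0.07), while BUB1 and CENPE, a motor of the kinetochore, fell (-0.77 ± 0.12 and -0.63 ± 0.15). Other replication genes split into 11 higher and 8 lower of 41, and other mitotic genes into 15 higher and 8 lower of 43. Of the 30 regulators 13 rose and 5 fell. CDKN1A, an inhibitor of cyclin-dependent kinases and a target of p53, had 175 and 228 CPM, against 21.5 and 10.7 CPM at day 0 (3.64 ± 0.18, adjusted p = 1.79e-24).

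The D cyclins followed courses of their own. CCND1 in WT cells had 96.1 and 88.7 CPM at day 0 and then, from day 1 to day 5 of SMADi, 492 and 459, 348 and 328, 326 and 356, 341 and 349, and 345 and 339 CPM. It stayed above day 0 in all 10 SMADi libraries (day 1: 2.36 ± 0.18, adjusted p = 2.89e-16; day 5: 1.89 ± 0.18, adjusted p = 9.96e-14). In Endo the same gene had 391 and 329 CPM on day 1, 70.4 and 64.8 CPM on day 2, and 108 and 115 CPM on day 5. It was above day 0 on day 1 (1.96 ± 0.18), below it on day 2 (-0.45 ± 0.17, adjusted p = 0.024) and not called on day 5 (0.27 ± 0.17, adjusted p = 0.173). In BMP4 CCND1 was higher on day 1 (233 and 183 CPM, 1.17 ± 0.17) and on day 5 (227 and 192 CPM, 1.18 ± 0.17, adjusted p = 7.98e-08).

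CCND2 rose in BMP4 to 318 and 328 CPM on day 5, against 178 and 196 CPM at day 0 (0.79 ± 0.08, adjusted p = 8.81e-12). It had 192 and 176 CPM in SMADi (-0.02 ± 0.08, adjusted p = 0.862) and 166 and 175 CPM in Endo (-0.13 ± 0.08, adjusted p = 0.173). On day 2 of Endo it was at 81.7 and 81.3 CPM, below both day 0 libraries (-1.20 ± 0.08). CCND3 fell to 12.9 and 13.5 CPM in SMADi on day 5, against 31.3 and 30.0 CPM at day 0 (-1.21 ± 0.09, adjusted p = 3.28e-17), although it had been higher on day 1 at 56.1 and 55.5 CPM (0.86 ± 0.08). At day 5 of Endo it was lower (-0.64 ± 0.09) and in BMP4 not called (-0.13 ± 0.09, adjusted p = 0.233). CDKN1B had 41.8 and 27.7 CPM at day 0 and, on days 1 to 5 of Endo, 25.6 and 24.7, 44.9 and 49.3, 73.1 and 70.6, 111 and 119, and 108 and 106 CPM. It was below both day 0 libraries on day 1 and above them from day 2 on. At day 5 its log2 fold change was 1.62 ± 0.19 in Endo (adjusted p = 8.73e-11), 0.73 ± 0.19 in SMADi (adjusted p = 0.000957) and -0.36 ± 0.19 in BMP4 (adjusted p = 0.131).

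**Figure D3:**
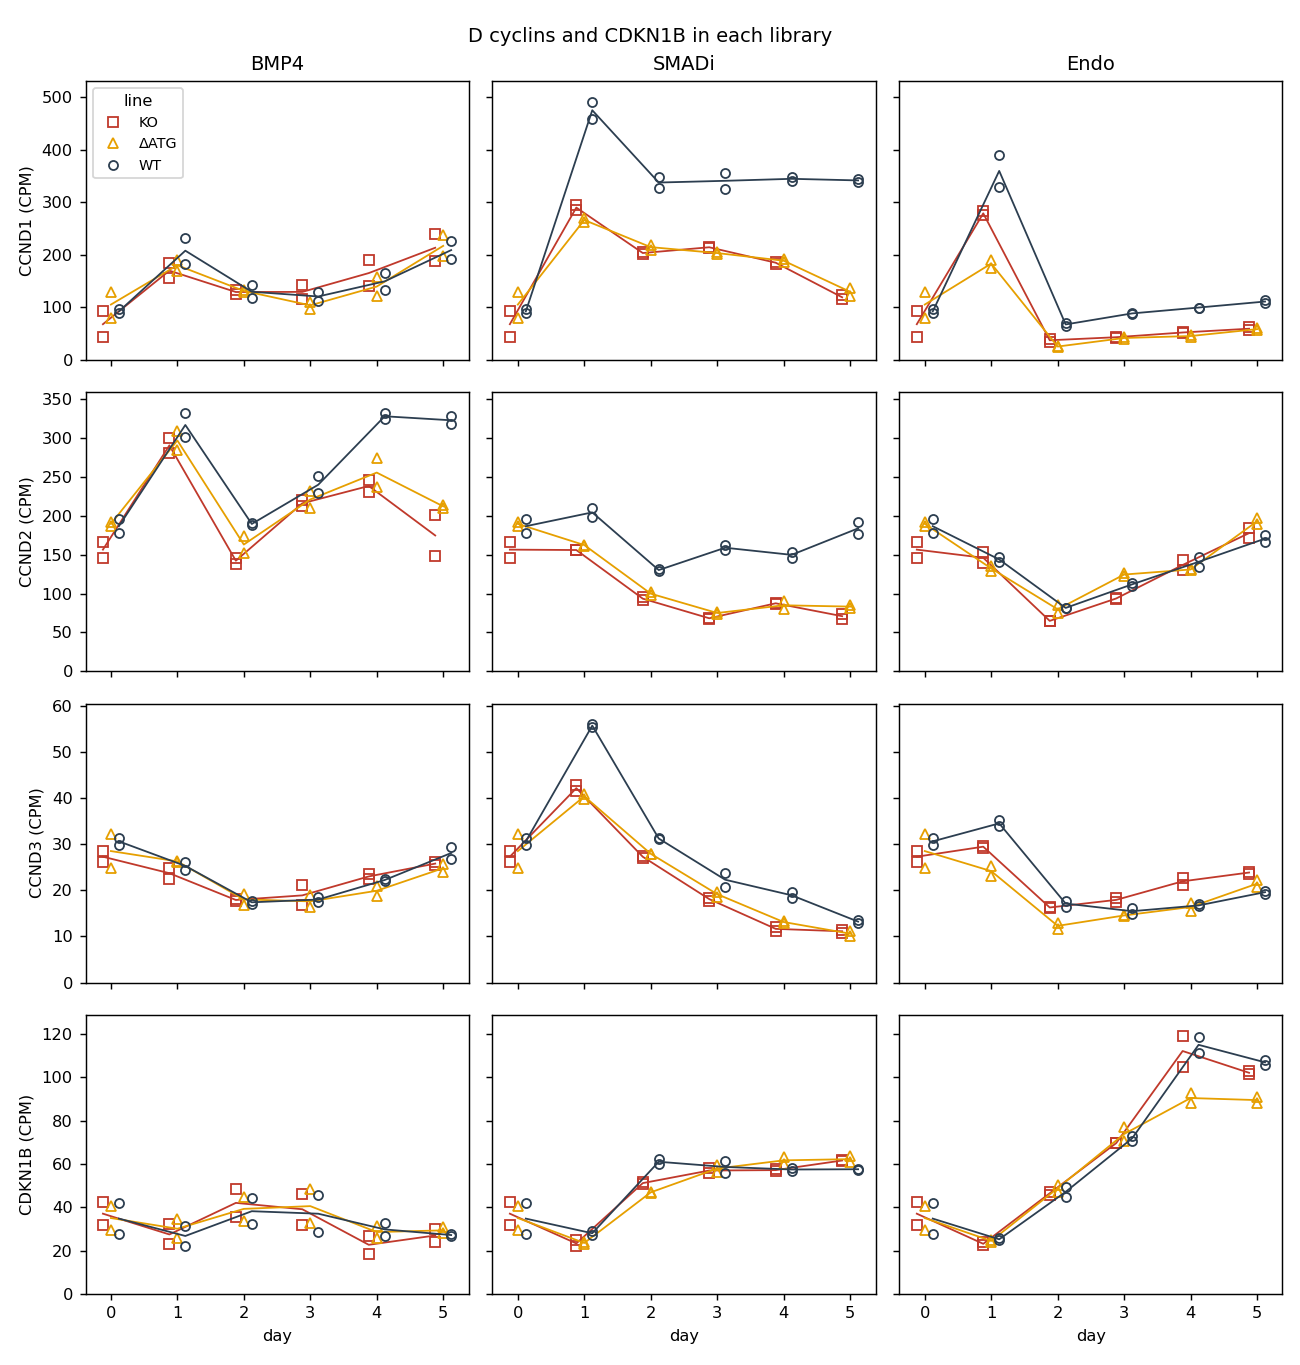
CPM of CCND1, CCND2, CCND3 and CDKN1B by day and protocol, with 1 point for each library of KO, ΔATG and WT cells. In SMADi the KO and ΔATG points of CCND1 and CCND2 lie below the WT points on each of days 1 to 5, and CDKN1B climbs in Endo in all 3 lines.

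Set against each other at day 5, WT cells in Endo had lower levels of most of the 42 genes than in the other protocols. Against BMP4, 33 genes were lower and 1 higher in Endo (58.3% of all genes called), and against SMADi 33 were lower and 4 higher (59.5% called). The replication genes were 15 lower of 16 and 14 lower of 16 in these comparisons, with medians of -1.20 and -1.01, and the mitotic genes 12 and 16 lower of 17, with medians of -0.53 and -0.79. The gene higher in Endo than in BMP4 was CDKN1B (1.98 ± 0.19, adjusted p = 3.24e-13). RRM2 (0.60 ± 0.16) and MCM6 (0.26 ± 0.09) were higher in Endo than in SMADi, as were CCND3 (0.57 ± 0.09) and CDKN1B (0.89 ± 0.19). MCM4 and MCM10 were furthest below BMP4 (-1.89 ± 0.10 and -1.76 ± 0.14), and MCM2 and ORC1 furthest below SMADi (-1.69 ± 0.09 and -1.65 ± 0.10). CENPF led the mitotic genes in both comparisons, lower in Endo by 1.78 (SE 0.17) than in BMP4. CCND1 in Endo was lower by 0.91 (SE 0.17) than in BMP4 and lower by 1.62 (SE 0.17) than in SMADi.

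SMADi against BMP4 at day 5 was balanced, with 13 genes higher and 16 lower (53.9% of all genes called). Replication genes were 4 higher and 8 lower, the E2F and cyclin E group 0 higher and 3 lower, and mitotic genes 7 higher and 3 lower. CDK1 and BUB1 were higher in SMADi (1.02 ± 0.18 and 0.74 ± 0.12), TYMS and RRM2 lower (-0.65 ± 0.08 and -0.65 ± 0.16). CCND1 (0.71 ± 0.17) and CDKN1B (1.08 ± 0.19) were higher in SMADi, while CCND2 (-0.81 ± 0.08) and CCND3 (-1.09 ± 0.09) were lower.

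At day 0 few of the 42 genes differed between the lines. Between KO and WT cells 0 were called with edgeR (4.89% of all genes called), 11 had an unadjusted p under 0.05, and DESeq2 called 1. ΔATG against WT cells had 0 higher and 5 lower genes (5.5% of all genes called): the replication genes PCNA (-0.36 ± 0.09, adjusted p = 0.00646), RRM2 (-0.53 ± 0.16, adjusted p = 0.034) and TYMS (-0.34 ± 0.08, adjusted p = 0.00264), and the mitotic genes CCNB1 (-0.39 ± 0.08, adjusted p = 0.000757) and AURKB (-0.25 ± 0.07, adjusted p = 0.0289). CCNB1 had 144 and 166 CPM in ΔATG cells, 179 and 210 CPM in KO cells and 221 and 185 CPM in WT cells. Both ΔATG libraries were lowest, while those of KO and WT cells overlapped. ΔATG against KO cells had 2 higher and 2 lower genes (4.07% of all genes called): CCND1 (0.63 ± 0.17, adjusted p = 0.0252) and CCND2 (0.28 ± 0.08, adjusted p = 0.0435) were higher, PCNA (-0.32 ± 0.09) and CCNB1 (-0.33 ± 0.08) lower. With a block for the library letter, which deviates jointly at day 0, the called genes numbered 11 for KO against WT (1 higher and 10 lower), 9 for ΔATG against WT (0 higher and 9 lower) and 9 for ΔATG against KO (5 higher and 4 lower). Over all 25821 genes the block called 3188, 2804 and 2661 in these comparisons, against 1263, 1420 and 1050 without it. Leaving out single libraries moved the counts among the 42 genes too: KO against WT gave 4 without WT b and 11 without KO a. ΔATG against WT gave 0 without WT a, 10 without WT b, 1 without ΔATG a and 2 without ΔATG b. ΔATG against KO gave 11 without KO a and 0 without KO b or without ΔATG a.

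CCND1 at day 0 differed between libraries a and b of each line. It had 92.6 and 43.5 CPM in KO cells, 130 and 80.7 CPM in ΔATG cells and 96.1 and 88.7 CPM in WT cells. Library a was above library b in each line, and the ranges of all 3 lines overlapped. Within either letter ΔATG was above KO.

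In BMP4 more replication genes were higher than lower in both edited lines on the average of the days, by small amounts. Averaged over days 1 to 5, 8 replication genes were higher and 1 lower in KO cells (median 0.10), and 9 were higher and 1 lower in ΔATG cells (median 0.12). On day 1 the medians of the replication genes lay below 0, at -0.11 in KO and -0.07 in ΔATG cells. The mitotic genes were 2 higher and 2 lower in KO cells, and 3 higher and 1 lower in ΔATG cells. Over all 42 genes the counts were 10 higher and 5 lower in KO cells (28.7% of all genes called) and 12 higher and 3 lower in ΔATG cells (17% called). All comparisons of KO and of ΔATG cells with WT cells share the WT libraries.

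CDT1 and MCM5 were highest in KO cells (0.21 ± 0.05 and 0.17 ± 0.04), ORC1 and CDT1 in ΔATG cells (0.24 ± 0.04 and 0.24 ± 0.05). MCM5 had 252 and 224 CPM in KO, 232 and 214 CPM in ΔATG and 195 and 175 CPM in WT cells on day 5, with no overlap between either edited line and WT. TYMS was the replication gene that was lower in both lines (-0.23 ± 0.03 in KO, -0.24 ± 0.03 in ΔATG). BUB1 (0.22 ± 0.05) and BUB1B (0.15 ± 0.03) were higher in KO cells, MKI67 (-0.24 ± 0.07, adjusted p = 0.00704), CENPE (-0.20 ± 0.07) and E2F8 (-0.23 ± 0.07) lower. CCND2 had 149 and 201 CPM in KO cells and 214 and 210 CPM in ΔATG cells on day 5, against 318 and 328 CPM in WT cells. All 4 edited libraries were below both WT libraries (average of days 1 to 5: -0.41 ± 0.04 in KO, adjusted p = 1.61e-13; -0.28 ± 0.04 in ΔATG, adjusted p = 3.41e-08). CCND1, CCND3 and CDKN1B were not called in either line, with log2 fold changes between -0.09 and 0.08.

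Other replication genes in BMP4 were 13 higher and 2 lower of 41 in KO cells, with WDHD1, a replication fork protein, at 0.26 ± 0.05. Other mitotic genes were 1 higher and 8 lower of 43, with ANLN, a scaffold of cell division, at -0.30 ± 0.06. Of all tested genes 28.7% were called in this comparison. Marker lists differed between the lines too. The 8 streak and mesoderm markers were all lower in KO and in ΔATG cells. On day 5 they summed to 91.8 to 138 CPM in KO, 187 to 231 CPM in ΔATG and 331 to 380 CPM in WT cells. Of the 8 pluripotent cell markers 6 were higher in each edited line. Their sums on day 5 were 4289 to 4646, 4360 to 4455 and 3305 to 3623 CPM in the same order of lines. The part of these marker lists in the differences was not tested. ΔATG against KO cells gave 3 higher and 0 lower genes (13.6% of all genes called): ORC1 (0.13 ± 0.04, adjusted p = 0.0169), TOP2A (0.15 ± 0.04, adjusted p = 0.00658) and CCND2 (0.13 ± 0.04, adjusted p = 0.0128). With the block for the letter 11 were called, 10 higher and 1 lower (6175 of all 25821 genes called, against 3508 without it). With only the libraries compared 0 were called. Leaving out 1 library gave 2 to 7, with 5 without ΔATG day 1 b, 7 without KO day 4 a and 6 without ΔATG day 4 b.

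Under SMAD inhibition both edited lines had less RNA of all 3 D cyclins than WT cells. CCND1 had, on days 1 to 5, 294 and 286, 202 and 205, 216 and 213, 183 and 187, and 115 and 123 CPM in KO cells. In ΔATG cells it had 269 and 263, 220 and 210, 201 and 206, 192 and 186, and 123 and 137 CPM, and in WT cells 492 and 459, 348 and 328, 326 and 356, 341 and 349, and 345 and 339 CPM. Every edited library was below every WT library of its day, and the gap was widest on day 5. Averaged over the days the log2 fold changes were -0.91 ± 0.08 in KO (adjusted p = 3.25e-15) and -0.90 ± 0.08 in ΔATG cells (adjusted p = 4.49e-15), and on day 5 it was -1.52 ± 0.17 in KO cells.

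CCND2 in SMADi had 74.3 and 67.4 CPM in KO and 85.5 and 80.9 CPM in ΔATG cells on day 5, against 192 and 176 CPM in WT cells. It was lower by 0.85 (SE 0.04, adjusted p = 1.02e-26) in KO and by 0.75 (SE 0.04, adjusted p = 2.28e-24) in ΔATG cells over days 1 to 5. CCND3 had 42.9 and 41.5 CPM in KO and 39.9 and 40.9 CPM in ΔATG cells on day 1, against 56.1 and 55.5 CPM in WT cells, and was lower over the 5 days by 0.37 and 0.34 (SE 0.04 in both, adjusted p = 1.76e-11 and 3.14e-10). Neither cyclin's edited libraries overlapped WT libraries on these days. CDKN1B was not called (-0.09 ± 0.08 in both lines, adjusted p = 0.404 and 0.449).

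More replication genes were higher than lower in SMADi on the average of the days, though on day 2 their median in KO cells was -0.07. Their mean log2 CPM on day 1 was 7.655 in KO and 7.628 in ΔATG cells, against 7.72 in WT cells. On day 2 it was 7.315 and 7.392, against 7.398, and on day 3 it was 7.357 and 7.388, against 7.096. Averaged over days 1 to 5, the replication genes were 9 higher and 4 lower in KO cells (median 0.13) and 10 higher and 3 lower in ΔATG cells (median 0.21). Mitotic genes were split into 4 higher and 4 lower in KO, and 4 higher and 5 lower in ΔATG cells. The totals were 15 higher and 11 lower in KO (45.6% of all genes called) and 18 higher and 11 lower in ΔATG cells (45.2% called). CCNE2, a partner of CDK2 at the start of S phase, had 8.88 and 9.21 CPM in KO and 11.0 and 10.8 CPM in ΔATG cells on day 5, against 2.77 and 4.40 CPM in WT cells. E2F2 had 9.38 and 9.84 CPM in KO and 11.1 and 12.9 CPM in ΔATG cells on day 5, against 5.38 and 6.32 CPM in WT cells. For both genes the edited libraries were higher without overlap from day 3 on. Over the 5 days CCNE2 was higher by 1.05 ± 0.12 in KO (adjusted p = 2.01e-10) and 1.11 ± 0.12 in ΔATG cells (adjusted p = 3.11e-11), and E2F2 by 0.66 ± 0.08 and 0.80 ± 0.08.

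RRM1 and RRM2, the 2 subunits of ribonucleotide reductase, were both higher in KO cells (0.38 ± 0.05 and 0.38 ± 0.07), and RRM2 and MCM2 led in ΔATG cells (0.48 ± 0.07 and 0.42 ± 0.04). RRM2 had 85.3 and 88.4 CPM in KO and 98.0 and 93.9 CPM in ΔATG cells on day 5, against 60.3 and 53.3 CPM in WT cells. CDT1 was lower in both lines (-0.29 ± 0.05 and -0.25 ± 0.05), as was CDC6 in KO cells (-0.21 ± 0.05, adjusted p = 0.000245) and MCM6 in ΔATG cells (-0.16 ± 0.04). MCM5 was higher by 0.11 ± 0.04 in KO (adjusted p = 0.01) and by 0.23 ± 0.04 in ΔATG cells. Of the mitotic genes MKI67 (0.42 ± 0.07 and 0.37 ± 0.07) and CENPE (0.35 ± 0.06 and 0.30 ± 0.06) were higher in KO and ΔATG cells.

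AURKB, a kinase that corrects chromosome attachment, and UBE2C, which tags mitotic cyclins for destruction, were lower. AURKB had 76.9 and 70.1 CPM in KO and 69.7 and 75.1 CPM in ΔATG cells on day 5, against 116 and 109 CPM in WT cells. The edited libraries did not overlap WT on any of the 5 days. The AURKB averages were -0.35 ± 0.03 in KO (adjusted p = 4.93e-14) and -0.37 ± 0.03 in ΔATG cells (adjusted p = 1.61e-14), and for UBE2C -0.35 ± 0.05 and -0.39 ± 0.05. CCNB1 was slightly lower (-0.10 ± 0.04 in KO, adjusted p = 0.0169; -0.14 ± 0.04 in ΔATG, adjusted p = 0.0011).

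Day by day, KO against WT cells in SMADi gave 1 higher and 6 lower genes on day 1 (8.64% of all genes called), 16 and 5 on day 3 (30.6% called), and 11 and 13 on day 5 (35.2% called). Replication genes were 0 higher and 0 lower on day 1, 10 higher and 1 lower on day 3, and 7 higher and 3 lower on day 5, when 0 mitotic genes were higher and 6 lower. The 3 D cyclins were lower on each of these days. The difference depended on day, by a joint test, for 25 of the 42 genes in KO cells (32.7% of all genes called) and for 26 in ΔATG cells (29.5% called). In the mean log2 level of replication genes minus that of mitotic genes, KO cells were at -0.452 and -0.262 and ΔATG cells at -0.283 and -0.236 on day 5, against -0.858 and -0.558 in WT cells.

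Other replication genes in SMADi were 18 higher and 1 lower of 41 in KO cells, with CLSPN, a checkpoint protein of the fork, at 0.56 ± 0.08. Other mitotic genes were 16 higher and 4 lower of 43, with SMC2, a condensin subunit, at 0.42 ± 0.07 and PTTG1 (securin) at -0.33 ± 0.05. Of the 30 regulators 15 were higher and 6 lower. CDK6, a kinase partner of D cyclins, had 10.3 and 11.8 CPM in KO cells on day 5, against 35.8 and 23.0 CPM in WT cells (average of days 1 to 5: -0.95 ± 0.14). CDKN1C had 25.8 and 28.1 CPM in KO cells, against 87.0 and 77.3 CPM in WT cells (-0.92 ± 0.06, adjusted p = 7.49e-21). The 8 neuroectoderm markers summed on day 5 to 1311 to 1363 CPM in KO, 1187 to 1280 CPM in ΔATG and 1305 to 1313 CPM in WT cells. Singly, 4 of the 8 were higher and 3 lower in each edited line over the days. The 8 pluripotent cell markers, 7 of them lower in each line, summed to 3343 to 3403 CPM, 3547 to 3633 CPM and 4567 to 4585 CPM in the same order of lines; the part of this difference in the results was not tested.

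ΔATG and KO cells were close in SMADi. With edgeR 0 of the 42 genes were called (1.07% of all genes called), 6 had an unadjusted p under 0.05, and DESeq2 called 3. The difference of CCND1 between the lines was 0.01 ± 0.08 and that of CCND2 0.10 ± 0.04 (adjusted p = 0.404). A p above the threshold does not show that the lines are equal.

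**Figure D4:**
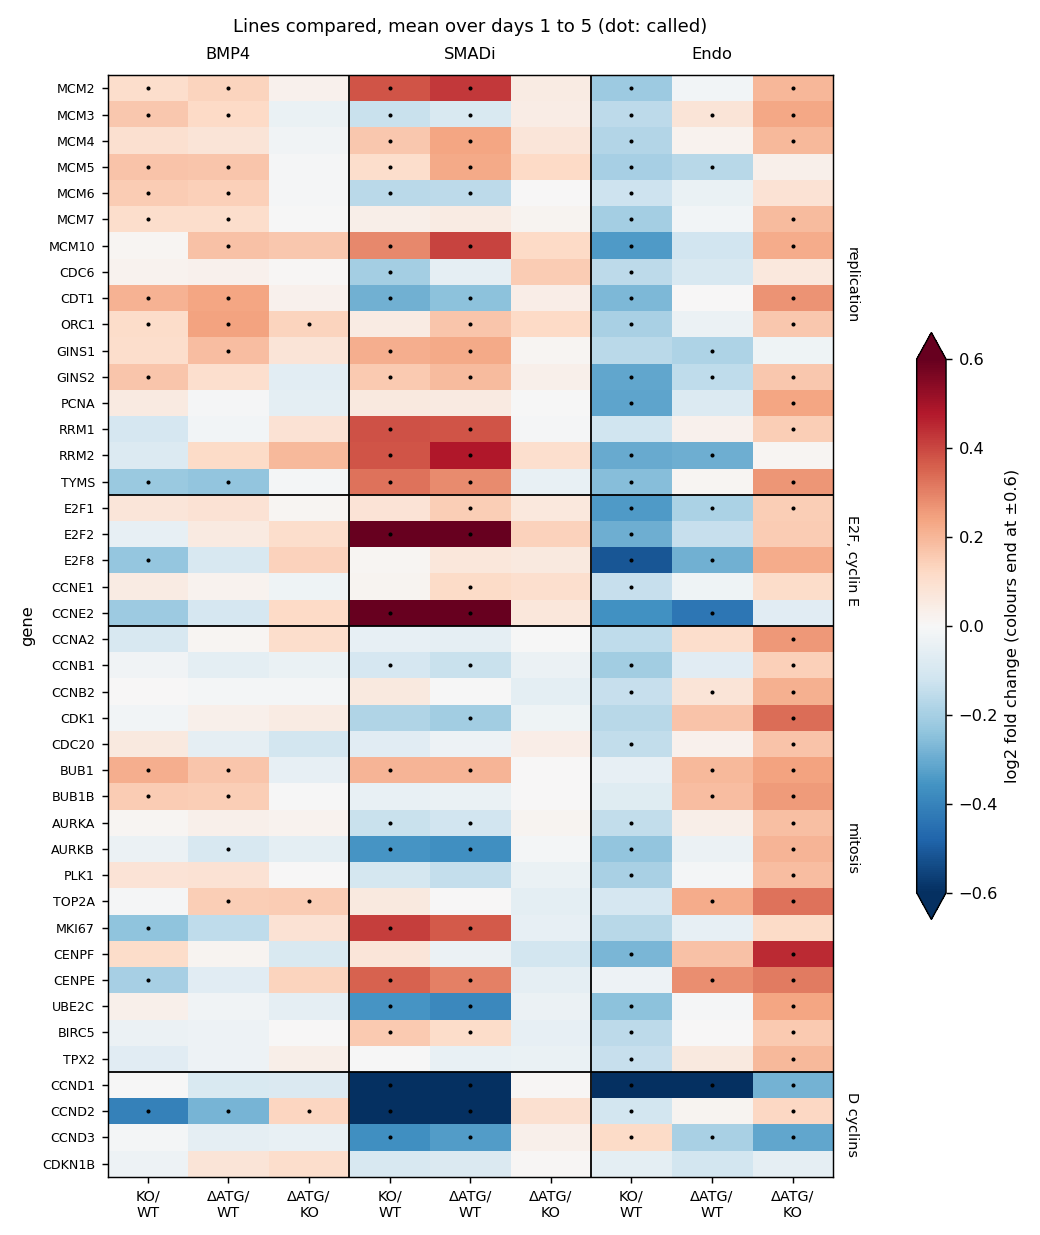
Log2 fold change of KO and of ΔATG against WT cells averaged over days 1 to 5, and of ΔATG against KO cells, with 1 row for each of the 42 genes and 1 block for each protocol; colours end at -0.6 and 0.6 and dots mark called differences. In SMADi all 3 D cyclin rows are lower in both edited lines, and in Endo the KO column is lower in nearly all rows while the ΔATG column is mixed.

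In Endo the edited lines differed from each other. On the average of days 1 to 5, KO cells had 30 of the 42 genes lower and 1 higher than WT cells (14.8% of all genes called). Replication genes were 14 lower of 16 (median -0.20), the E2F and cyclin E group 4 lower of 5 (median -0.34) and mitotic genes 10 lower of 17 (median -0.15). By single days the called genes numbered 0 on day 1 (3.28% of all genes called), 2 on day 2 (4.65% called), 12 on day 3 (3.7% called), 14 on day 4 (4.02% called) and 15 on day 5 (5.48% called). ΔATG cells had 6 genes higher and 9 lower than WT cells (33.8% of all genes called), with 1 higher and 4 lower replication genes and 5 higher and 0 lower mitotic genes. The average hides opposite days: the mean log2 CPM of the mitotic genes was 5.99 in ΔATG against 5.68 in WT cells on day 3, and 6.37 in ΔATG against 6.57 in WT cells on day 5. ΔATG against KO cells gave 29 higher and 2 lower genes (18.4% of all genes called), among them 11 of 16 replication genes (median 0.18) and 16 of 17 mitotic genes (median 0.21).

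Of the called replication genes MCM10 and PCNA, and of the called E2F and cyclin E genes E2F8 and E2F1, lay furthest below WT cells in KO cells. PCNA had 46.5 and 42.8 CPM in KO and 59.6 and 67.0 CPM in ΔATG cells on day 5, against 60.2 and 63.3 CPM in WT cells. The KO libraries were lowest, and those of ΔATG cells lay on both sides of the WT libraries. Over the days PCNA was lower in KO cells by 0.32 (SE 0.04, adjusted p = 1.78e-08) and MCM10 by 0.34 (SE 0.06). E2F8 was lower by 0.51 (SE 0.11, adjusted p = 0.00031) and E2F1 by 0.34 (SE 0.05). CENPF (-0.27 ± 0.07, adjusted p = 0.00561) and UBE2C (-0.24 ± 0.05) led the mitotic genes. MCM5 (-0.20 ± 0.04) and CCNB1 (-0.21 ± 0.04, adjusted p = 8.99e-06) were lower as well.

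In ΔATG against WT cells RRM2 (-0.29 ± 0.07), GINS1 (-0.18 ± 0.07), CCNE2 (-0.43 ± 0.17, adjusted p = 0.0364) and E2F8 (-0.29 ± 0.10) were lower, while MCM3 (0.08 ± 0.02), CENPE (0.28 ± 0.07) and TOP2A (0.22 ± 0.04) were higher. Against KO cells, CENPF (0.45 ± 0.07, adjusted p = 4.19e-06) and CDK1 (0.34 ± 0.08, adjusted p = 0.00219) were the highest mitotic genes, CDT1 (0.27 ± 0.05) and TYMS (0.26 ± 0.04, adjusted p = 4.58e-08) the highest replication genes, and E2F1 (0.15 ± 0.05, adjusted p = 0.0262) was the gene called in the E2F and cyclin E group.

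The gap between ΔATG and KO cells changed with the day for 29 of the 42 genes by a joint test (7.93% of all genes called). On day 3, 24 were higher and 1 lower in ΔATG cells (8.81% of all genes called), with 16 of 17 mitotic genes (median 0.50) and 7 of 16 replication genes (median 0.24). Day 4 gave 20 higher and 1 lower (6.68% called), with 13 mitotic and 7 replication genes. On day 5 it was 13 higher and 0 lower (7.07% called), with 11 replication genes (median 0.42) and 0 mitotic genes (median 0.05). The mitotic genes made up most of the calls on days 3 and 4, and the replication genes most of those on day 5. On days 1 and 2 the mean log2 CPM of the replication genes was lower in ΔATG than in KO cells. It was 7.403 against 7.519 on day 1 and 6.338 against 6.418 on day 2, when the libraries of the 2 lines overlapped.

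CDK1 had 41.2 and 47.2 CPM in ΔATG cells on day 3, 19.4 and 21.6 CPM in KO cells and 25.2 and 29.3 CPM in WT cells. The ΔATG libraries were highest and the KO libraries lowest without overlap (ΔATG against KO: 1.11 ± 0.20, adjusted p = 6.69e-05). CENPF had 111 and 107 CPM in ΔATG, 43.6 and 75.3 CPM in KO and 78.0 and 94.0 CPM in WT cells on that day. MCM2 and MCM7 led on day 5 (0.71 ± 0.09, adjusted p = 4.28e-08, and 0.59 ± 0.06, adjusted p = 6.07e-11). The 8 definitive endoderm markers on day 3 summed to 6841 to 7108 CPM in ΔATG, 8795 to 8801 CPM in KO and 9807 to 9822 CPM in WT cells, and the 8 streak and mesoderm markers to 976 to 985, 1171 to 1221 and 1589 to 1619 CPM. Their part in the differences was not tested.

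CCND1 was lower in both edited lines on the average of days 1 to 5 of Endo. On days 1 to 5 it had 275 and 283, 34.3 and 40.6, 44.5 and 42, 50.8 and 53.8, and 56.8 and 62.2 CPM in KO cells. In ΔATG cells it had 191 and 176, 24.1 and 26.9, 39.9 and 43.7, 46.6 and 44.5, and 60.6 and 56.8 CPM, and in WT cells 391 and 329, 70.4 and 64.8, 89.3 and 88.0, 99.8 and 99.8, and 108 and 115 CPM. Every edited library was below the WT libraries of its day, but in KO cells CCND1 was not called on day 1 (-0.37 ± 0.17, adjusted p = 0.316). The averages were -0.82 ± 0.08 in KO (adjusted p = 3.25e-12) and -1.10 ± 0.08 in ΔATG cells (adjusted p = 3.05e-17), and ΔATG against KO cells gave -0.29 ± 0.08 (adjusted p = 0.00666).

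CCND3 parted the lines in Endo: it had 15.6 and 17.2 CPM in ΔATG and 22.7 and 21.2 CPM in KO cells on day 4, against 17 and 16.5 CPM in WT cells. The KO libraries were highest, and the ΔATG and WT libraries overlapped. Over the days CCND3 was lower in ΔATG cells (-0.20 ± 0.04, adjusted p = 9.25e-05), higher in KO cells (0.12 ± 0.04, adjusted p = 0.0397) and lower in ΔATG than in KO cells (-0.31 ± 0.04, adjusted p = 2.30e-08). CCND2 was lower in KO cells (-0.11 ± 0.04, adjusted p = 0.0378) and not called in ΔATG cells (0.02 ± 0.04, adjusted p = 0.859). CDKN1B was not called in KO (-0.06 ± 0.08) or ΔATG cells (-0.11 ± 0.08).

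Other genes of these processes were counted in Endo as well. In KO against WT cells 17 of 41 other replication genes and 19 of 43 other mitotic genes were lower and 0 higher in either list, with POLA2, a primase partner, at -0.34 ± 0.08 and SPC24, a kinetochore subunit, at -0.41 ± 0.08. In ΔATG against KO cells 19 of 41 and 30 of 43 were higher and 0 lower, with DSCC1, which helps to load the clamp, at 0.36 ± 0.07 and SPC25 at 0.47 ± 0.09. ΔATG against WT cells gave 11 higher and 6 lower other replication genes, and 13 higher and 3 lower other mitotic genes. Among regulators CDKN2B was lower in ΔATG than in KO cells (-0.82 ± 0.14), as was MYC (-0.41 ± 0.08).

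Whether the effect of the edit differs between protocols was tested as a difference of differences. For KO against WT cells, Endo minus BMP4 gave 1 higher and 26 lower genes (20.2% of all genes called), Endo minus SMADi 2 higher and 24 lower (30.2% called), and SMADi minus BMP4 10 higher and 11 lower (42% called). For ΔATG against WT cells the counts were 3 higher and 12 lower for Endo minus BMP4 (22.8% called), 10 higher and 18 lower for Endo minus SMADi (37.5% called), and 11 higher and 12 lower for SMADi minus BMP4 (35.7% called). In KO cells 12 of 16 replication and 11 of 17 mitotic genes were lower in Endo minus BMP4. In ΔATG cells 10 replication genes were lower and 1 higher in the same test, and 1 mitotic gene was higher and 0 lower.

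The effect on CCND1 differed between BMP4 and each of the other protocols. It differed between SMADi and BMP4 by -0.90 ± 0.11 in KO (adjusted p = 3.83e-10) and -0.81 ± 0.11 in ΔATG cells. Between Endo and BMP4 it differed by -0.81 ± 0.11 in KO and -1.01 ± 0.11 in ΔATG cells, and between Endo and SMADi by 0.09 ± 0.11 in KO (adjusted p = 0.664) and -0.20 ± 0.11 in ΔATG cells (adjusted p = 0.146). The effect on CCNE2 differed between Endo and SMADi, by -1.41 ± 0.21 in KO (adjusted p = 1.44e-07) and -1.55 ± 0.21 in ΔATG cells (adjusted p = 1.03e-08). CCND2 also differed between Endo and SMADi (0.74 ± 0.05 in KO, 0.77 ± 0.05 in ΔATG).

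In the overexpression arm the levels of LNCPRESS1 go against several labels, so groups are named as labelled. The libraries labelled lncPRESS1 had 32.3 and 53.8 CPM of LNCPRESS1 at the early, 55.1 and 58.6 CPM at the middle and 153 and 151 CPM at the late stage. Those labelled ΔATG (lncPRESS1DATG) had 144 and 156, 87.8 and 133, and 154 and 156 CPM, and those labelled lncSIRP 185 and 133, 13.7 and 13.3, and 34.9 and 35.9 CPM. The vector libraries had 29 and 30.2, 47.8 and 36.3, and 32.9 and 32.6 CPM.

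The middle libraries labelled lncPRESS1 and lncSIRP stood apart in several marker lists. Pluripotent cell markers summed to 2059 to 2066 CPM in lncPRESS1 and 2106 to 2111 CPM in lncSIRP, against 6218 to 6479 CPM in vector libraries. Streak and mesoderm markers summed to 919 to 950 and 787 to 820 CPM, against 35.9 to 44.8 CPM. Definitive endoderm markers differed at the other stages too. At the early stage they summed to 13.3 to 27.1 CPM in lncPRESS1, 4.72 to 5.02 CPM in ΔATG and 7.80 to 7.99 CPM in lncSIRP libraries, against 42 to 43.1 CPM in vector libraries. At the late stage the sums were 65.2 to 83.8, 4.52 to 4.71 and 107 to 115 CPM in these labels, against 47 to 52.6 CPM in vector libraries. The stages are therefore given one by one, and the part of these differences in the results was not tested.

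At the early stage the libraries labelled ΔATG had less RNA of mitotic genes than vector libraries: 9 of 17 were lower and 0 higher, with 5 of 16 replication genes lower (1 higher and 17 lower of all 42; 26.3% of all genes called). CDK1 had 53.8 and 92.8 CPM in these libraries and 143 and 149 CPM in vector libraries (-0.99 ± 0.21, adjusted p = 0.0025). RRM2 had 99.3 and 79.1 CPM, against 176 and 175 CPM in vector libraries (-0.98 ± 0.16, adjusted p = 0.000436). CCND1 had 124 and 149 CPM, against 215 and 214 CPM in vector libraries (-0.65 ± 0.17, adjusted p = 0.011). None of these libraries overlapped those of the vector, but library a of CDK1 was far below library b. The description of library a of this ΔATG group carries, alone among all libraries, the word Redo. What was redone is not stated in the sources used here. CCNA2 (-0.82 ± 0.15), GINS1 (-0.59 ± 0.17), E2F8 (-0.48 ± 0.12) and CDKN1B (-0.54 ± 0.12) were lower too, and E2F1 was the higher gene (0.36 ± 0.09). The early libraries labelled lncPRESS1 had 0 higher and 1 lower gene (0.412% of all genes called), MKI67 (-0.70 ± 0.13, adjusted p = 0.0321). Those labelled lncSIRP had 0 higher and 5 lower genes, all mitotic (10.8% of all genes called).

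At the middle stage, 14 genes were higher and 13 lower in the libraries labelled lncPRESS1 (58.1% of all genes called) and 12 higher and 12 lower in those labelled lncSIRP (60.4% called). In those labelled ΔATG edgeR called 0 genes (7.36% of all genes called), with 6 at an unadjusted p under 0.05. TYMS had 207 and 213 CPM in lncPRESS1 and 215 and 209 CPM in lncSIRP libraries, against 63.4 and 77.8 CPM in vector libraries (1.57 ± 0.12 and 1.58 ± 0.12). CCNE2 had 14.1 and 11.5 CPM and 15.2 and 12.8 CPM, against 2.78 and 2.82 CPM in vector libraries (2.20 ± 0.24 and 2.32 ± 0.23). Both genes were higher in all 4 libraries. RRM2 was higher (0.81 ± 0.16 and 0.76 ± 0.16), while CDT1 (-0.57 ± 0.15 and -0.67 ± 0.15), MCM3 (-0.41 ± 0.08 and -0.50 ± 0.08) and BUB1B (-0.81 ± 0.09 and -0.84 ± 0.09) were lower. CCND2 had 85.1 and 81.5 CPM in lncPRESS1 and 110 and 119 CPM in lncSIRP libraries, against 233 and 228 CPM in vector libraries (-1.47 ± 0.10 and -1.01 ± 0.10), and CCND1 had 383 and 396 CPM and 497 and 493 CPM, against 244 and 240 CPM (0.69 ± 0.17 and 1.03 ± 0.17).

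At the late stage 7 of 16 replication genes were higher in lncPRESS1 libraries (median 0.26), 6 in ΔATG libraries (median 0.25) and 8 in lncSIRP libraries (median 0.28), with 0 lower. Mitotic genes were 0 higher, with 4, 1 and 2 lower. Over all 42 genes the counts were 12 higher and 5 lower in lncPRESS1 (22.6% of all genes called), 7 and 3 in ΔATG (21.1% called) and 13 and 3 in lncSIRP libraries (21.4% called). All 3 comparisons share the vector libraries. The replication minus mitotic level was 0.518 and 0.562 in lncPRESS1, 0.352 and 0.372 in ΔATG and 0.389 and 0.430 in lncSIRP libraries, against -0.067 and 0.071 in vector libraries.

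MCM5 at the late stage had 493 and 539 CPM in lncPRESS1, 508 and 518 CPM in ΔATG and 470 and 519 CPM in lncSIRP libraries, against 299.9 and 358 CPM in vector libraries. No construct library overlapped those of the vector (0.65 ± 0.11, 0.64 ± 0.11 and 0.59 ± 0.11, adjusted p = 0.000953, 0.00047 and 0.00188). CCNE1 was higher under all 3 labels (0.42 ± 0.09, 0.39 ± 0.09 and 0.47 ± 0.09). CDKN1B had 25.2 and 25.4 CPM in lncPRESS1, 23.3 and 23.7 CPM in ΔATG and 22.7 and 23.8 CPM in lncSIRP libraries, against 43.9 and 40.3 CPM in vector libraries. All 6 construct libraries were lower (-0.74 ± 0.12, -0.84 ± 0.12 and -0.86 ± 0.12).

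CCND1 differed between the labels at the late stage: it had 519.5 and 539 CPM in lncPRESS1 and 512 and 538 CPM in lncSIRP libraries but 289 and 292 CPM in ΔATG libraries, against 265 and 311 CPM in vector libraries. The first and the last label lay above the vector (0.88 ± 0.17 and 0.87 ± 0.17), and ΔATG lay within its range (0.01 ± 0.17, adjusted p = 0.983). CCND3 was higher in lncPRESS1 and lncSIRP libraries (0.37 ± 0.09 and 0.28 ± 0.09), and CCND2 was lower in ΔATG libraries (138 and 144 CPM, against 203 and 193 CPM in vector libraries; -0.49 ± 0.10).

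Averaged over the stages, 11 genes were higher and 8 lower in lncPRESS1 libraries (45.8% of all genes called), 4 and 13 in ΔATG libraries (25.8% called), and 11 and 9 in lncSIRP libraries (50.1% called). These averages join stages that differ. By joint tests 26, 13 and 22 of the 42 genes depended on stage (48.2%, 16.4% and 48.1% of all genes called). Without ΔATG middle library a, the count for ΔATG was 24 in place of 17, and 11 without vector early b, ΔATG late a or ΔATG late b.

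BIRC5 (survivin, a partner of AURKB; chr17:78214186-78225636, GRCh38) and TPX2 (a spindle factor that activates AURKA; chr20:31739271-31801805) were low together in 3 of the 9 construct groups. BIRC5 had 61.3 and 57.7 CPM in early lncSIRP libraries, against 124 and 131 CPM in early vector libraries (-1.10 ± 0.08, adjusted p = 5.96e-07). It had 74.2 and 73.5 CPM in middle lncPRESS1 libraries, against 129 and 132 CPM in middle vector libraries (-0.82 ± 0.08), and 68.9 and 67.7 CPM in late lncPRESS1 libraries, against 124 and 126 CPM in late vector libraries (-0.87 ± 0.08). In these groups both libraries lay far below the vector and close to each other. TPX2 had 143 and 137 CPM, against 258 and 275 CPM, in early lncSIRP (-0.93 ± 0.08, adjusted p = 3.11e-06). It had 183 and 179 CPM, against 269 and 270.3 CPM, in middle lncPRESS1 (-0.58 ± 0.08), and 134 and 131 CPM, against 260.3 and 245 CPM, in late lncPRESS1 libraries (-0.93 ± 0.08). The other construct groups had 113 to 144 CPM of BIRC5.

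The genes around BIRC5 and TPX2 were counted in the same groups. Within 1.5 Mb of BIRC5, 37 other genes were tested, of which 2 were higher and 1 lower in early lncSIRP, 13 and 12 in middle lncPRESS1, and 5 and 1 in late lncPRESS1 libraries, with medians of -0.15, -0.11 and -0.00. Within the same distance of TPX2, 34 were tested, with 1 higher and 0 lower, 12 and 8, and 3 and 0 in the same groups and medians of 0.13, -0.07 and 0.07. Of all tested genes 10.8% were called in early lncSIRP, 58.1% in middle lncPRESS1 and 22.6% in late lncPRESS1 libraries. BIRC5 and TPX2 were chosen for this description after their values were seen.

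**Figure D5:**
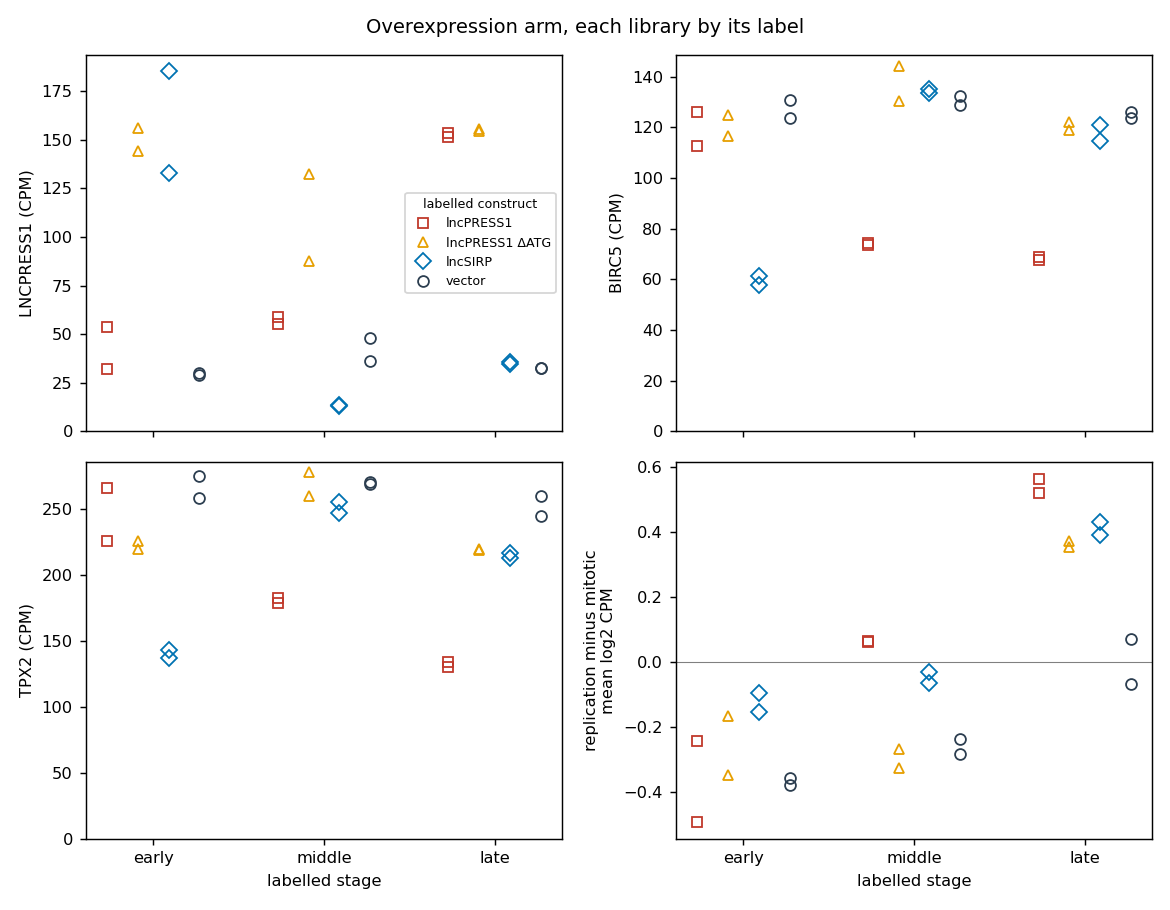
CPM of LNCPRESS1, BIRC5 and TPX2 and the replication minus mitotic level by labelled construct and stage, with 1 point for each library. BIRC5 and TPX2 are low in early lncSIRP and in middle and late lncPRESS1 libraries, and at the late stage the replication minus mitotic level is above the vector under all 3 labels.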

How the data were processed

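RNA was sequenced from stranded mRNA libraries, per the labels' protocols. The authors deposited estimated counts per gene, described as length scaled, for 120 libraries; the build was GRCh38 per the submitters' processing notes, and the sources used here name no aligner or quantifier. Counts were rounded to whole numbers. Each arm was filtered on low counts (25821 and 23300 genes tested), scaled by TMM and fitted in 1 model over all its groups with edgeR 4.0.16 in R 4.3.3 (quasi-likelihood test, 48 and 12 residual degrees of freedom), with Benjamini-Hochberg adjusted p-values over all tested genes. Log2 CPM used a prior count of 2. Log2 fold changes are given ± SE, where the SE is the absolute log2 fold change divided by the square root of its quasi-likelihood F. The fits were also run on simulated counts. These had the same dispersion for all genes and no shared deviation of libraries by letter, so they do not test the spread of the real libraries. Positions are from GENCODE 29.

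The 42 genes, the wider gene lists and the marker lists were chosen with earlier results of these data known. Named genes are the 2 highest and 2 deepest called of a role group, plus CCND1, CCND2, CCND3 and CDKN1B, which are also given by library, as are MCM5, CCNE2, CCNB1 and E2F2. Other genes shown by library, and BIRC5 and TPX2, were chosen after their values were seen. The labels name no batch behind the letters a and b. Deviations of same-letter libraries correlated over 0.1 in 3 of 3 pairs of groups at day 0 (0.371 to 0.743) and 15 of 15 in BMP4 (0.179 to 0.643), but in 0 of 15 in SMADi, 1 of 15 in Endo and 4 of 18 in the overexpression arm, so at day 0 and in BMP4 the block is given beside results where it moves a count by over 1.5 times. Alternatives were DESeq2 size factors, no filter, only the libraries compared, the DESeq2 1.42.0 Wald test, the replicate block, and each library left out in turn.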

Additional observations from a re-analysis of the deposited data

Results flagged for a closer look

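The effect of an edit differed between protocols for many of the 42 genes, by the edgeR test of the difference itself. For KO against WT cells this held for 21 genes between SMADi and BMP4, 27 between Endo and BMP4, and 26 between Endo and SMADi. For ΔATG against WT cells it held for 23, 15 and 28 genes in the same pairs of protocols. Of all tested genes 42%, 20.2% and 30.2% were called in these tests for KO cells, and 35.7%, 22.8% and 37.5% for ΔATG cells.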

How the results depend on the processing

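Of 547 single-gene calls among the 42 genes, 538 were kept with DESeq2 size factors, 510 without a filter, 545 with the replicate block, 477 with only the libraries compared and 541 with the DESeq2 Wald test, and 0 reversed. With only the libraries compared the called genes numbered 9 for WT BMP4 and 13 for WT SMADi at day 5, 0 for ΔATG against WT and 0 for ΔATG against KO at day 0, 8 for ΔATG against WT and 0 for ΔATG against KO in BMP4, 3 for ΔATG against KO in SMADi, and 8 for overexpressed ΔATG. With the replicate block, which pairs libraries by letter, they numbered 11 for KO against WT, 9 for ΔATG against WT and 9 for ΔATG against KO at day 0, 11 for ΔATG against KO in BMP4 and 3 in SMADi; it moved no other count by over 1.5 times. In the comparisons whose count it moved, the block also raised the number of all genes called. The DESeq2 Wald test gave 1 for KO against WT at day 0, and 6 in BMP4 and 3 in SMADi for ΔATG against KO. Without a filter ΔATG against KO in BMP4 gave 1.

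By single stages, the overexpression counts were 1 (early lncPRESS1), 5 (early lncSIRP), 0 (middle ΔATG) and 10 (late ΔATG, 7 higher and 3 lower, a reversed balance). Leaving out 1 library gave 0 to 11 for KO against WT, 0 to 10 for ΔATG against WT and 0 to 11 for ΔATG against KO at day 0, 2 to 7 for ΔATG against KO in BMP4 (5 without ΔATG day 1 b, 7 without KO day 4 a, 6 without ΔATG day 4 b), 0 to 1 in SMADi (1 without KO day 5 b), and 11 to 24 for overexpressed ΔATG. The cause of these shifts was not tested.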
